A study of Sus scrofa with 10 samples.

Results

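The 150 genes described here are the protein-coding loci that the deposited expression table assigns to the KEGG pathway of protein processing in the endoplasmic reticulum (ER), out of 19972 protein-coding loci. The pathway is listed at 154 loci, and 4 of them that also carry the cell cycle or TGF-beta pathway (CUL1, RBX1, a locus that STT3A shares with an unnamed gene, and an unnamed locus) were left out. The rule that chose the members used no expression values. Ovaries of 10 gilts were compared, 5 treated with rpFSH and 5 controls, each sequenced as a library of its own. All 10 gilts were fed altrenogest, a progestin that holds back oestrus, from an age of 210 days, for 18 days and at a daily dose of 20 mg, and then went without it for 2 days. The treated gilts were injected with 1000 IU each of rpFSH, a recombinant pig follicle-stimulating hormone made in CHO cells, and the controls with saline. Ovaries were taken at 234 days of age, after the surface follicles had been removed, so the values describe what was left of the ovary and not the large follicles.

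The ER folds and modifies the proteins that a cell secretes or places in its membranes. New chains enter through the Sec61 channel, receive N-linked glycans from the oligosaccharyltransferase, fold with the help of lumenal chaperones, the lectins calnexin and calreticulin and protein disulfide isomerases, and leave in COPII vesicles. Chains that do not fold are passed back to the cytosol and degraded by the proteasome, a route called ER-associated degradation (ERAD). When misfolded chains accumulate, the sensors encoded by ERN1, EIF2AK3 and ATF6 start the unfolded protein response, which raises chaperone and ERAD genes and slows translation. In the ovary, granulosa and luteal cells secrete proteins, and luteal cells also make progesterone on extensive smooth ER membranes.

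Of the 150 genes, 145 averaged 0.1 FPKM or more over the 10 pigs and were tested. FPKM is the number of fragments per kilobase of transcript, scaled to the mapped fragments of the library. Comparing genes by FPKM depends on the length assigned to each locus. In control 1, SSR3 had 3858 counts at 3.38 FPKM and SSR4 had 3895 counts at 66.2 FPKM. The other 5 averaged less and were not tested, among them LMAN1L and SEL1L2, with 56 and 37 counts summed over all pigs. The median of the mean FPKM was 6.78 for the tested members and 2.70 for the 15170 tested protein-coding loci. Together, the members took between 1.69 and 2.39% of the protein-coding counts of a pig, with 1.96 ± 0.08% (SD, n = 5) in the controls and 1.94 ± 0.28% (SD, n = 5) in the rpFSH group. The total count per pig lay between 64873797 and 75114003. For 16 members the locus also held another gene, as for VCP (with PIGO, FANCG and STOML2), HERPUD1 (SLC12A3), PDIA4 (ZNF786), HSPA4L (PLK4), ATF6B (TNXB) and BAX (NUCB1 and DHDH), and their values cannot be divided between these genes.

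Some pigs stood apart in the markers of ovarian cell types. STAR, which carries cholesterol into mitochondria for steroid synthesis, was at 532 FPKM in control 2, 448 in rpFSH 1 and 121 in rpFSH 4, and between 1.52 and 5.67 in the other 7 pigs. The 5 luteal markers found of 6 listed (STAR, CYP11A1, FDX1, SCARB1 and LHCGR) added up to 2505, 1411 and 338 FPKM in these 3 pigs and to between 14.9 and 56.1 in the others. In the 3 pigs the sums came mostly from CYP11A1, STAR and SCARB1. FDX1 was high in control 2 (28.7) and rpFSH 1 (44.4) but at 5.84 in rpFSH 4, near rpFSH 2 (5.25). LHCGR was highest in rpFSH 1 (7.32), but control 2 (2.74) and rpFSH 4 (3.75) were below control 3 (4.01) and rpFSH 2 (5.18). Control 5 was high in the 4 smooth muscle markers, with a sum of 1693 FPKM against 63.9 to 470 in the other pigs. It was also highest in the 4 markers of oviduct epithelium (FOXJ1, TEKT1, DNAH5 and OVGP1), with 93.8 FPKM, and control 2 was next, with 35.7 FPKM. OVGP1, which is not a gene of cilia, made up 63.6 and 20.6 FPKM of these sums. Control 2 was highest in the sum of the 5 plasma cell markers, with 26.7 FPKM against 3.34 to 5.92. JCHAIN made up 22.4 FPKM of that sum, while TNFRSF17 was not raised in control 2 (2.39). The 5 granulosa markers found of 6 listed added up to between 4.83 and 93.0 FPKM (HSD3B1 and FOXL2 were not analysed here), the 2 theca markers to between 3.47 and 222, the 3 oocyte markers to between 3.41 and 13.8, and the 4 stroma markers to between 131 and 817. The 3 endothelial markers added up to between 20.1 and 54.8 FPKM, and the 3 T cell markers to between 0.734 and 3.55. The 3 macrophage markers added up to between 30.0 and 47.8 FPKM. Most of that sum was CD68 (22.4 to 44.4 FPKM), whose locus also holds EIF4A1, so it cannot be read as macrophages alone. The loci of AMH, INHBA, TNFRSF17 and OVGP1 also held another gene. In whole tissue, more cells of a type and more RNA per cell cannot be told apart.

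The level of the ER genes differed from pig to pig within both groups. For each gene, the deviation of log2(FPKM + 1) from its mean over the 10 pigs was taken, and the median over the 145 genes was 0.31 in rpFSH 1, 0.18 in control 2 and -0.25 in rpFSH 3. In the other 7 pigs it was between -0.09 and 0.03, and the same median over all tested loci was between -0.07 and 0.02 in every pig. The members' median thus stood above that of all loci by 0.34 in rpFSH 1 and by 0.17 in control 2, and below it by 0.17 in rpFSH 3. The members took 1.54% of all counts and 2.06% of the protein-coding counts in control 2, 1.73 and 2.39% in rpFSH 1, and 1.09 and 1.69% in rpFSH 3. Protein-coding loci thus took the largest part of all counts in control 2 and rpFSH 1 and the smallest in rpFSH 3. Whether this bears on the ER gene levels was not tested. The group means of the 5 medians were 0.02 ± 0.10 (SD) in the controls and -0.02 ± 0.21 (SD) in the rpFSH group, so the spread within each group was larger than the difference between them.

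**Figure D1:**
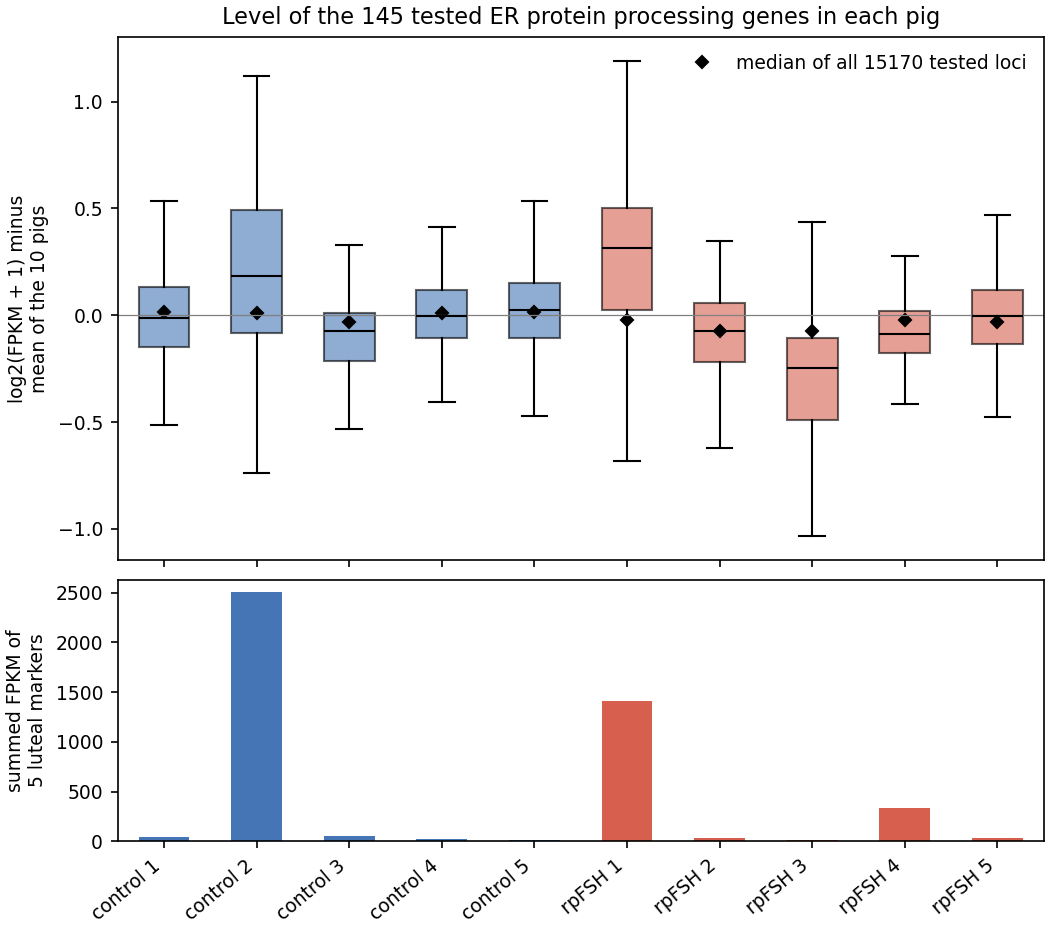
The upper panel shows, for each pig, the deviation of log2(FPKM + 1) of the 145 tested ER genes from the mean of the 10 pigs (box, quartiles; line, median; whiskers, to the last gene within 1.5 times the quartile range; outliers not drawn; blue, control; red, rpFSH), with the median of all tested loci as a diamond. The lower panel shows the summed FPKM of the 5 luteal markers, and the medians of rpFSH 1 (0.31) and control 2 (0.18) are the highest while rpFSH 4, with a luteal sum of 338, has a median of -0.09.

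Counting single genes gave the same picture. The highest of the 10 pigs was rpFSH 1 for 50 members (34.5%, against 16.2% of all tested loci) and control 2 for 43 (29.7%, against 17.8%). The lowest pig was rpFSH 3 for 64 members (44.1%, against 16.6%). For 49 members (33.8%) control 2 and rpFSH 1 were the highest pair, which held for 12.2% of all tested loci. These are the pigs with the highest luteal marker sums, and rpFSH 3 had the lowest theca sum (3.47 FPKM) and, after control 2, the lowest granulosa sum (10.7 FPKM). Low sums of both were shared by control 2, with a theca sum of 5.81 FPKM and a granulosa sum of 4.83 FPKM. The part of these cell types in the ER gene levels was not tested. In rpFSH 4, with a luteal sum of 338 FPKM, the members' median was -0.09.

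The difference between pigs was not equal over the steps of the pathway. It was widest in the lumenal chaperones, whose 8 genes had a median deviation of 0.64 in control 2, 0.48 in rpFSH 1 and -0.73 in rpFSH 3, and all 8 were lowest in rpFSH 3. The 6 subunits of the oligosaccharyltransferase followed with 0.51, 0.50 and -0.62 in the same pigs, and all 6 were highest in control 2 and rpFSH 1. Genes of glycan trimming and the calnexin cycle reached 0.58 in rpFSH 1 but 0.15 in control 2, and disulfide formation reached 0.32 and 0.04. ERAD recognition and membrane ligases showed the reverse order, with 0.44 in control 2 and 0.25 in rpFSH 1, and 15 of these 24 genes were highest in control 2. For the 25 sensors and effectors of the unfolded protein response the median lay between -0.07 and 0.07 in every pig, while single genes among them varied in both directions.

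**Figure D2:**
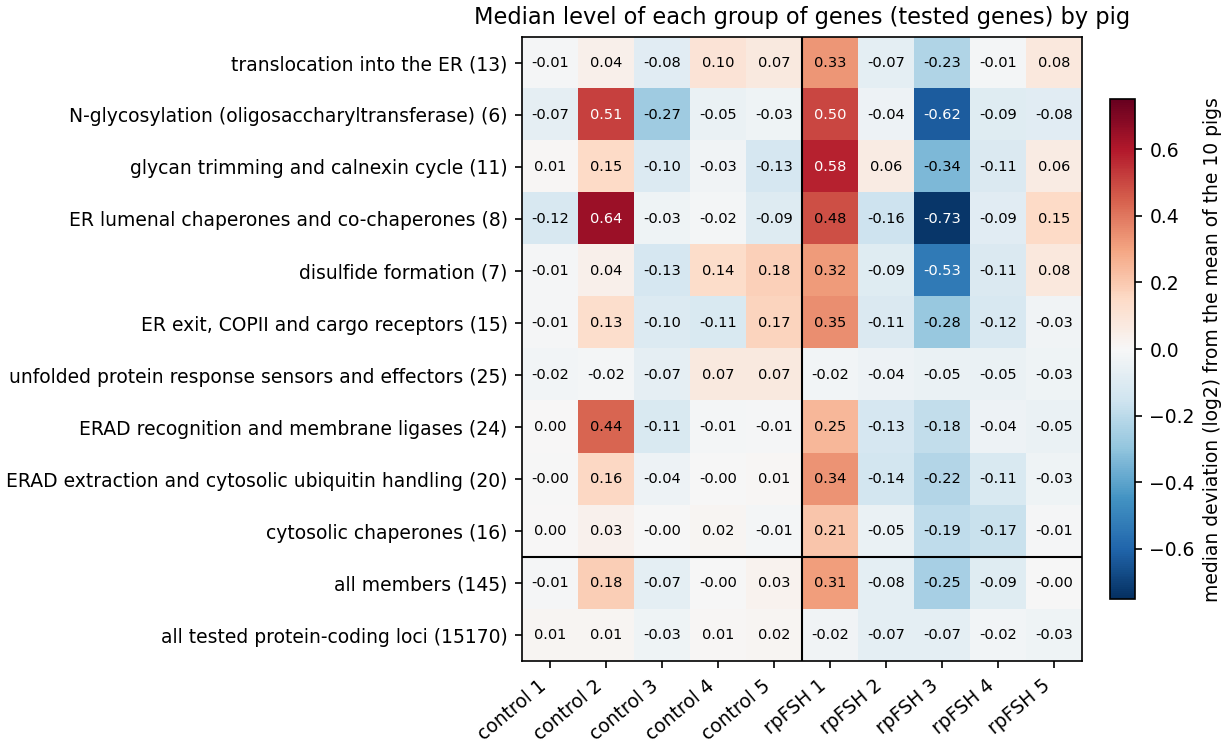
Each cell gives the median deviation of log2(FPKM + 1) from the mean of the 10 pigs over the tested genes of a group (rows, with the number of genes) in a pig (columns; the vertical line divides control from rpFSH), with all members and all tested loci in the last rows. The lumenal chaperones run from -0.73 in rpFSH 3 to 0.64 in control 2, while the median of the unfolded protein response genes stays between -0.07 and 0.07.

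Among the lumenal chaperones, HSPA5 encodes BiP, the Hsp70 of the ER that also holds the stress sensors inactive, at chromosome 1, 265930042 to 265947997 of Sscrofa11.1. HSPA5 was at 77.2, 122, 74.1, 74.2 and 68.8 FPKM in control 1 to 5 and at 110, 50.4, 37.1, 70.3 and 101 FPKM in rpFSH 1 to 5. The lowest value was in the rpFSH group, as were 2 of the 3 highest, and the groups overlapped. HSP90B1, the Hsp90 of the ER, had its highest FPKM in control 2 (101) and rpFSH 1 (90.4) and its lowest in rpFSH 3 (40.2). HYOU1, a large Hsp70-like nucleotide exchange factor for BiP, was at 29.2 FPKM in control 2, 21.4 in rpFSH 1 and 18.2 in rpFSH 5, against 6.11 to 14.0 in the other pigs. SIL1, another exchange factor for BiP, was at 18.0 FPKM in control 2 and 8.55 in rpFSH 1, against 2.27 to 5.17 in the others. DNAJB11, a co-chaperone of BiP, ran from 1.75 FPKM in rpFSH 3 to 6.56 in rpFSH 1. DNAJC10, a reductase that works with BiP, ran from 6.43 FPKM in rpFSH 3 to 9.79 in control 5, and was at 7.77 in rpFSH 1. All 8 genes of the lumenal chaperone group were lowest in rpFSH 3, and control 2 and rpFSH 1 were the highest pair in 5 of the 8.

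The calnexin cycle held the members with the highest FPKM. CALR (calreticulin, chromosome 2, 66097914 to 66102102) had a mean FPKM of 131 ± 8.99 in the controls and 125 ± 45.3 in the rpFSH group (SD, n = 5 each). Its 5 control values were close together (119 to 142), and its rpFSH values ran from 74.5 in rpFSH 3 to 194 in rpFSH 1. PDIA3, the disulfide isomerase that works with both lectins, was at 102, 206, 95.9, 112 and 95.2 FPKM in control 1 to 5 and at 191, 130, 62.8, 105 and 130 FPKM in rpFSH 1 to 5. PDIA3 and CALR did not differ in level beyond this spread, and they were followed by HSPA5, HSPA8 and HSP90B1, whose group means were between 66.1 and 83.3 FPKM. CANX (calnexin), the membrane-bound lectin, was at 15.4 FPKM in control 3 and 56.7 in rpFSH 1, and between 25.3 and 44.9 in the other pigs.

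RPN2, a subunit of the oligosaccharyltransferase (chromosome 17, 40322364 to 40378866), showed the pig-to-pig difference most clearly in its complex. RPN2 was at 18.1, 77.4, 17.0, 24.0 and 18.1 FPKM in control 1 to 5 and at 55.8, 23.5, 11.2, 23.2 and 23.2 FPKM in rpFSH 1 to 5. Control 2 was 3.34 times the median of the other 9 pigs. The other subunits had the same highest pair with smaller differences, as in DDOST (63.4 and 70.0 FPKM, against 25.6 to 59.1) and DAD1 (35.4 and 50.7 FPKM, against 14.1 to 26.7). STT3B, a catalytic subunit, was at 12.6 and 11.1 FPKM, against 7.07 to 8.57.

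At the entry to the ER, SEC61A1, the pore of the channel, was highest in rpFSH 1 (41.2 FPKM), control 5 (33.9) and control 2 (33.5) and lowest in control 3 (20.2). SSR2, a subunit of the translocon-associated protein complex, had the highest mean FPKM of this group, with 56.9 ± 3.85 in the controls and 58.2 ± 9.95 in the rpFSH group (SD, n = 5 each). CKAP4, a protein of rough ER sheets, ran from 8.79 FPKM in rpFSH 3 to 48.2 in rpFSH 1. Of the disulfide isomerases, P4HB was at 24.7 FPKM in rpFSH 3, 59.6 in rpFSH 1 and 30.5 to 50.6 in the others. PDIA4 lay between 12.5 and 14.7 FPKM in the controls and between 7.55 and 17.7 in the rpFSH group, with the lowest value in rpFSH 3 and the highest in rpFSH 1. The oxidase gene ERO1B had another order, with 20.7 FPKM in rpFSH 4 and 10.7 in control 2 against 3.91 to 5.80 in the other pigs, while its relative ERO1A was lowest in control 2 (3.55 FPKM).

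For export from the ER, SAR1A, the small GTPase that starts a COPII coat (chromosome 14, 73090844 to 73108156), varied widely within both groups. SAR1A was at 34.4, 19.6, 11.7, 12.8 and 32.9 FPKM in control 1 to 5 and at 46.1, 36.7, 7.92, 12.6 and 13.8 FPKM in rpFSH 1 to 5. Its relative SAR1B lay between 4.35 and 8.03 FPKM, with control 2 and rpFSH 1 highest. SEC23B, of the inner coat, was at 16.5 FPKM in control 2 and 15.4 in rpFSH 1 against 5.07 to 8.96 in the others, whereas SEC31A, of the outer coat, lay between 10.1 and 16.8 FPKM and was lowest in control 2. BCAP31, a cargo receptor of the ER membrane, was at 21.9 and 19.0 FPKM in control 2 and rpFSH 1 against 6.13 to 9.94.

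In ERAD, SEL1L, the adaptor of the membrane ligase SYVN1, was at 8.14 FPKM in rpFSH 4 and between 15.0 and 22.4 in the other 9 pigs. HERPUD1, an ERAD scaffold induced by ER stress, was at 8.23 FPKM in control 2 and between 3.43 and 5.01 in the others. OS9, a lectin that selects misfolded glycoproteins, was at 44.1 FPKM in control 2 and 33.7 in rpFSH 1 against 19.7 to 28.9. VCP, the ATPase that pulls chains from the membrane, ran from 7.65 FPKM in rpFSH 3 to 20.7 in rpFSH 1. Its small inhibitor SVIP was at 5.84 FPKM (1778 counts) in control 2 and between 0.033 and 0.687 FPKM (10 to 211 counts) in the other pigs. In the cytosol, the ligase gene STUB1 was at 32.1 FPKM in rpFSH 1 against 8.41 to 15.1 in the others, and the deubiquitinase gene ATXN3 was at 9.26 and 10.5 FPKM in rpFSH 1 and 2 against 3.15 to 4.93.

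DNAJA1, a cytosolic co-chaperone of Hsp70 (chromosome 10, 33430985 to 33445584), had the same high pigs as RPN2. DNAJA1 was at 13.4, 55.2, 17.3, 17.4 and 11.3 FPKM in control 1 to 5 and at 60.7, 11.1, 10.1, 19.0 and 13.4 FPKM in rpFSH 1 to 5, so that a pig of each group stood at about the same high level. HSPA8, the constitutive cytosolic Hsp70, ran from 33.6 FPKM in rpFSH 3 to 118 in rpFSH 1 and was at 68.3 in control 2. HSP90AB1 was lowest in control 2 (43.8 FPKM) and highest in rpFSH 1 (83.5).

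The genes of the stress response differed in how much they varied, with an SD within groups on the log2 scale of 0.51 for ATF4 and 0.77 for ATF6B and a median of 0.25 over the 25. EIF2AK3 (PERK), the kinase that slows translation, lay between 5.90 and 7.98 FPKM in all 10 pigs. ERN1, the sensor that splices XBP1 mRNA, ran from 1.53 FPKM in control 4 to 4.99 in control 2, and XBP1 itself from 13.7 in rpFSH 2 to 27.5 in rpFSH 1. The splicing of XBP1 cannot be read from these gene-level values. ATF6 was highest in control 2 (19.8 FPKM) and lay between 9.96 and 16.2 elsewhere. DDIT3 (CHOP), a transcription factor of prolonged stress, was at 2.46 FPKM in control 2 and 2.60 in rpFSH 1 against 1.13 to 1.60 in the others. The kinase gene EIF2AK2, which interferon induces, was at 13.7 FPKM in rpFSH 4 against 3.41 to 6.50. ATF6B was at 26.7 FPKM in control 5 against 3.08 to 10.1, at a locus shared with TNXB.

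**Figure D3:**
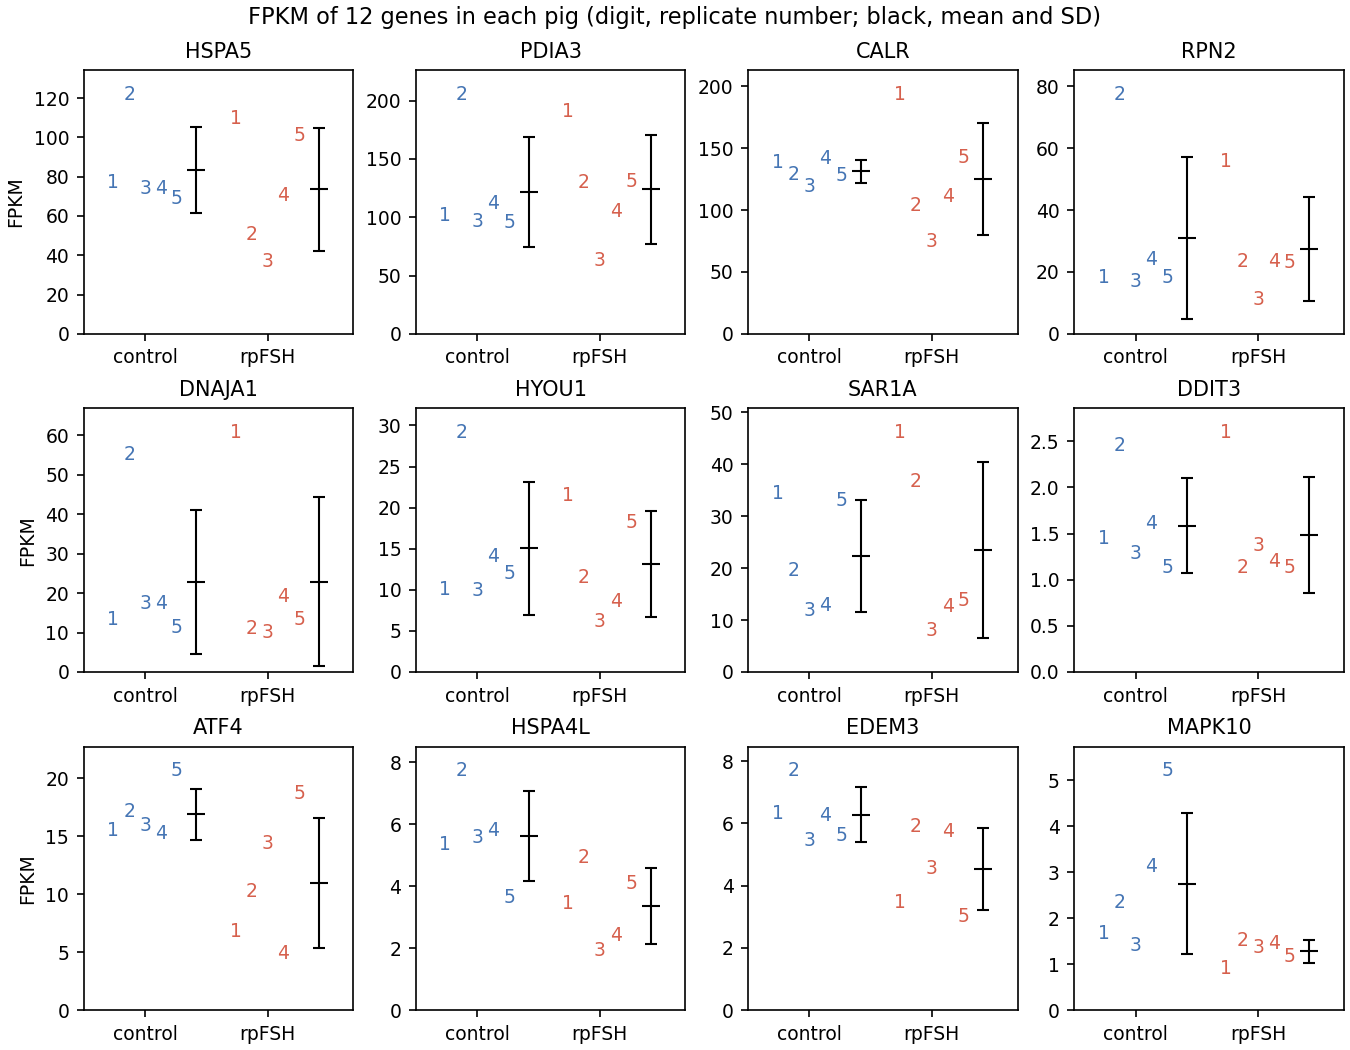
FPKM of 12 members in each pig, with the replicate number as the symbol (blue, control; red, rpFSH) and the group mean with its SD in black beside them; each axis starts at 0. Control 2 and rpFSH 1 stand above the rest in PDIA3, RPN2, DNAJA1, HYOU1 and DDIT3, and the rpFSH values of ATF4 run from 4.90 to 18.7 FPKM.

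The comparison of the groups asked whether rpFSH changed these genes, and few members differed. By limma, 4 of the 145 members (2.76%) had an unadjusted P under 0.05 and were lower in the rpFSH group, against 2.21% of all tested loci, and 0 were higher, against 0.817%. The 4 were HSPA4L, MAPK10, EDEM3 and ATF4. With P adjusted over all tested loci, 0 members and 0.0% of the loci were under 0.05 in limma or in edgeR, and the smallest adjusted p of a member was 1.00 in limma and 0.981 in edgeR. MAPK10 was the 1 member past the limits that the study set for DE (P under 0.05, with group means that differ by more than 1 on the log2 scale), which 1.13% of the loci passed. The share of members called was thus near that of all loci.

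HSPA4L, a cytosolic relative of the Hsp70 exchange factors (chromosome 8, 96961578 to 97089996, a locus shared with PLK4), was at 5.33, 7.73, 5.56, 5.80 and 3.63 FPKM in control 1 to 5 and at 3.43, 4.93, 1.94, 2.41 and 4.07 FPKM in rpFSH 1 to 5. Control 5 lay among the rpFSH pigs. Its log2 change was -0.62 ± 0.22 (SE; P = 0.0164, adjusted p = 1.00), and the two-sided exact permutation test of mean FPKM gave p = 0.0317.

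MAPK10, a kinase of the JNK family that acts downstream of ERN1 (chromosome 8, 132249646 to 132747574), was at 1.66, 2.34, 1.40, 3.13 and 5.21 FPKM in control 1 to 5 and at 0.903, 1.51, 1.37, 1.45 and 1.16 FPKM in rpFSH 1 to 5. The highest value was that of control 5, the pig with the high smooth muscle and oviduct epithelium markers, whose part in it was not tested. The log2 change was -0.64 ± 0.23 (SE; P = 0.0204, adjusted p = 1.00; exact permutation p = 0.0238) and the log2 ratio of the group means -1.10. Without control 5 the log2 change was -0.43, and 0 members passed the limits for DE. The relatives MAPK8 and MAPK9 did not reach P under 0.05, with log2 changes of 0.02 and 0.07.

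EDEM3, a mannosidase that marks misfolded glycoproteins for ERAD (chromosome 9, 125908842 to 125983079), was at 6.32, 7.70, 5.45, 6.26 and 5.63 FPKM in control 1 to 5 and at 3.47, 5.91, 4.56, 5.73 and 2.99 FPKM in rpFSH 1 to 5. The groups overlapped through rpFSH 2 and 4. The log2 change was -0.42 ± 0.17 (SE; P = 0.0312, adjusted p = 1.00; exact permutation p = 0.0476). Its relatives EDEM1 and EDEM2 did not reach P under 0.05, with log2 changes of 0.04 and -0.13.

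ATF4, the transcription factor made when PERK slows translation (chromosome 5, 8722366 to 8745368), was at 15.5, 17.1, 15.9, 15.3 and 20.7 FPKM in control 1 to 5 and at 6.80, 10.2, 14.4, 4.90 and 18.7 FPKM in rpFSH 1 to 5. The 2 lowest values were those of rpFSH 4 and rpFSH 1, which were also high in luteal markers, while control 2, highest in these markers, was at the level of the other controls. The log2 change was -0.70 ± 0.29 (SE; P = 0.0356, adjusted p = 1.00), and the exact permutation test gave p = 0.0873. By edgeR neither ATF4 nor EDEM3 reached P under 0.05, with log2 changes of -0.54 and -0.39.

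All 4 calls ended when the 3 pigs high in luteal markers were left out (4 control and 3 rpFSH pigs remained). ATF4 moved most, to a log2 change of -0.24, and the other 3 were at -0.61 (MAPK10), -0.43 (HSPA4L) and -0.37 (EDEM3). The same fit had 4 other members with P under 0.05, all lower in the rpFSH group (BAG2, BCAP31, ERP29 and SSR1), against 3.14% of all loci. With control 5 left out as well the 4 were BAG2, BCAP31, DNAJA1 and UBQLN4, against 5.03% of all loci. Without rpFSH 1 alone, 8 of the 145 members had P under 0.05 and were lower, against 3.35% of all loci.

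The deposited counts, which are the FPKM values on another scale and no separate measurement, gave a like number of calls with partly other genes. By edgeR, 1 member was higher with P under 0.05 (BAX, against 1.52% of all loci), and 3 were lower (HSPA4L, MAPK10 and SVIP, against 3.21%). By DESeq2, 1 member was higher (BAX, against 2.1%) and 2 were lower (HSPA4L and MAPK10, against 3.95%), and 0 had an adjusted p under 0.05, against 0.567% of all loci. BAX, a pore-forming protein of cell death, had a log2 change of 0.22 ± 0.12 (SE) by limma, where it did not reach P under 0.05, and of 0.30 by edgeR. SVIP had a log2 change of -2.73 by edgeR, and of -2.17 without the 3 pigs high in luteal markers, control 2 among them, where its P stayed under 0.05. In 0 members were the groups without overlap, in either direction, against 0.0791% of all loci with every rpFSH pig higher and 0.547% with every rpFSH pig lower.

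The median log2 change of the members was -0.07, beside -0.05 for all tested loci, and 96 of 145 were below 0, beside 9676 of 15170. By group of genes the median ran from -0.19 in the 8 lumenal chaperones to 0.01 in the 11 genes of glycan trimming and the calnexin cycle. It was -0.12 in ER exit (13 of 15 genes below 0), -0.10 in the cytosolic chaperones (13 of 16), -0.09 in ERAD recognition (17 of 24), -0.07 in the oligosaccharyltransferase (5 of 6), -0.03 in ERAD extraction (13 of 20) and in translocation (8 of 13), and 0.00 in disulfide formation (3 of 7) and in the unfolded protein response (13 of 25). The medians depend on scaling, and by edgeR the median was 0.02 for the members and -0.01 for all loci. The 4 genes with P under 0.05 by limma were spread over the unfolded protein response (ATF4 and MAPK10), ERAD recognition (EDEM3) and the cytosolic chaperones (HSPA4L), and the other 7 groups had 0.

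The intervals show how large a difference in log2(FPKM + 1) could have gone unseen. On this scale the change is smaller than the log2 fold change in genes of low FPKM, so for these the intervals do not bound the fold change. SVIP, at a mean of 0.828 FPKM, had a log2 change of -0.64 and a log2 ratio of the group means of -2.79. For 133 of 145 members, the 95% interval of the log2 change, which is not adjusted for the number of genes, lay between -1 and 1. It was narrow for EIF2AK3 (-0.21 to 0.24), XBP1 (-0.38 to 0.49) and ATF6 (-0.55 to 0.24). It was also narrow for DDIT3 (-0.47 to 0.33), whose mean was only 1.54 FPKM. For the main folding genes it was wider, with -0.93 to 0.42 for HSPA5, -0.71 to 0.34 for HSP90B1, -0.69 to 0.41 for CALR and -0.71 to 0.71 for PDIA3. Among the widest were those of DNAJA1 (-1.25 to 1.05), SAR1A (-1.16 to 0.99) and RPN2 (-1.11 to 0.96). The median SD within groups was 0.31 on the log2 scale in the members and 0.26 in all tested loci.

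**Figure D4:**
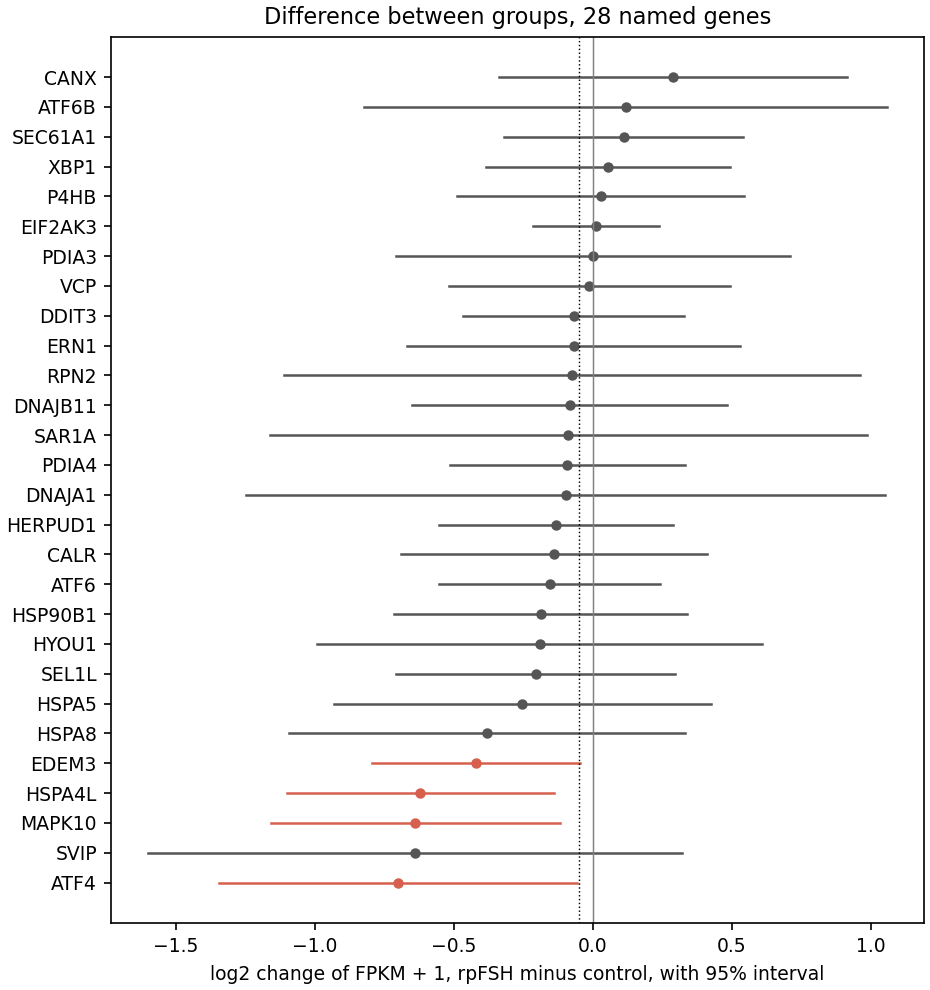
The log2 change of FPKM + 1 (rpFSH minus control, point) with its 95% interval from limma is drawn for 28 members, in red where the unadjusted P is under 0.05, with a dotted line at the median of all tested loci (-0.05). The 4 red intervals (EDEM3, HSPA4L, MAPK10 and ATF4) lie below 0, and those of DNAJA1, SAR1A and RPN2 reach from below -1 to about 1.

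A second list held 25 ER and stress genes that are not in the pathway as the table gives it, among them further chaperones, KDEL receptors, signal peptidase subunits and targets of ATF4. All 25 were tested, 0 had P under 0.05 in either direction, and the median log2 change was -0.07. The smallest P was 0.115, for ASNS (asparagine synthetase, a target of ATF4), with a log2 change of -0.36 ± 0.21 (SE). MANF, a secreted ER stress protein, was at 5.09 ± 0.43 FPKM in the controls and 4.73 ± 1.89 in the rpFSH group (SD, n = 5 each), with the lowest value in rpFSH 3 (2.26) and the highest in rpFSH 1 (7.12). Both CHAC1 and TRIB3, targets of ATF4 and CHOP, were low but higher in the pigs with luteal markers. CHAC1 was at 1.27 FPKM in control 2, 2.46 in rpFSH 1 and 0.390 in rpFSH 4 against 0.0696 to 0.198 in the others. TRIB3 was at 1.54, 0.655 and 0.811 FPKM in the same pigs against 0.0633 to 0.262. Both were named after their values were seen. Other targets of ATF4 in the list had another order. ASNS was lowest of all pigs in rpFSH 4 (5.89 FPKM), and ATF3 was lowest of the rpFSH pigs in rpFSH 1 (1.82 FPKM).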

How the data were processed

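RNA-seq of 10 pig ovaries was used, 5 per group, with groups and pig numbers from the sample labels. Trimming with Cutadapt, mapping to Sscrofa11.1 and assembly with StringTie were done by the authors, and the labels name HISAT2 2.0, Bowtie 0.12.2 and StringTie 1.3.0. The deposited table gives an FPKM, estimated by the authors with StringTie and Ballgown, and a whole-number count for each locus in each pig. The making of these counts is not given in the sources used here. They stand in a fixed ratio to FPKM for each locus and pig, so tests on the counts use the same values rescaled. The methods describe rRNA removal and the labels poly(A) selection. Pathway assignments and positions are those of the table, and so are most names. Some symbols were assigned here, as for DNAJB11, EIF2AK2, HSP90AB1 and HSP90B1, for which the table gives Ensembl identifiers, and ATXN3, which it names ATXN3L. PLK4 at the locus of HSPA4L is likewise not named by the table.

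Groups were compared with limma 3.58.1 (lmFit, eBayes with trend, R 4.3.3) on log2(FPKM + 1) over the 15170 protein-coding loci that averaged 0.1 FPKM or more, with Benjamini-Hochberg adjustment over all of them. limma took the place of Ballgown, which the authors used, and FPKM rather than counts was the main scale since the study called DE on FPKM. The quasi-likelihood test of edgeR 4.0.16 with TMM, and DESeq2 1.42.0, were run on the deposited counts at the same loci, and DESeq2 gave no P for some loci, SVIP among them. For single genes a two-sided exact permutation test used all 252 ways to divide the pigs (smallest p 0.00794). Its p-values are not adjusted. The genes they are given for were picked by limma P on the same values, so they are no separate support. On simulated data with 200 of 15170 genes changed by a log2 change of 2 in this comparison, limma found 99.5%, and edgeR and DESeq2 100.0%, of the changed genes at P under 0.05, with 4.93, 5.07 and 5.79% of the unchanged ones. The simulation gave every gene the same dispersion and no pig a shift shared by its genes. These rates therefore check the running of the tools, and do not hold for smaller changes or for the spread of these pigs.

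The rule for the members used the pathway assignments and no expression values. That rule and all lists (10 groups by role, 25 further genes, cell type markers) were set with earlier results of these data known. Named genes are 20 fixed pathway genes, of which 19 are members (STT3A is not), the members with the smallest P under 0.05 (at most 5 per direction), those called DE, those whose groups do not overlap (0 members), the 5 with the highest mean and the 5 with the largest spread within groups. Other members given with values were chosen after their values were seen. The pigs with STAR above 100 FPKM are called high in luteal markers. Alternatives were no filter or one at a mean of 1 FPKM, a pseudocount of 0.1, quantile normalization, upper-quartile scaling, both count tools, a replicate block and the omission of each pig. The P-values of limma set the group difference against the spread between pigs, drawn for each gene towards a trend over all tested loci. Protein and promoter sequences of the members were not analysed here.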

Additional observations from a re-analysis of the deposited data

Results flagged for a closer look

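For the 28 named genes and the members' median level, 58 groups of 5 pigs were checked on the log2 scale for a pig whose gap to the nearest other pig takes more than 0.71 of the range of its group. In 9 of them a pig was so far above the other 4, and chance flags about 1 in 20 groups. Control 2 was the pig in 7 of the 9. Its FPKM was 122 for HSPA5 (others 68.8 to 77.2), 101 for HSP90B1 (63.4 to 72.0), 206 for PDIA3 (95.2 to 112), 77.4 for RPN2 (17.0 to 24.0), 55.2 for DNAJA1 (11.3 to 17.4), 8.23 for HERPUD1 (3.63 to 4.29) and 5.84 for SVIP (0.0887 to 0.636). In the rpFSH treatment group the pig was rpFSH 1, with 2.60 FPKM for DDIT3 (others 1.13 to 1.37) and 0.687 for SVIP (0.033 to 0.146). RPN2, DNAJA1 and SVIP were named for their large spread within groups in these same data, so the rate of 1 in 20 does not hold for them. The flagged genes were measured in the same pigs and are not independent. Control 2 and rpFSH 1 were the pigs with the highest luteal marker sums (2505 and 1411 FPKM). Control 2 was also highest in the sum of plasma cell markers (26.7 FPKM, mostly JCHAIN, others 3.34 to 5.92). It was next after control 5 in oviduct epithelium markers (35.7 FPKM, mostly OVGP1). The part of these cells was not tested.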

How the results depend on the processing

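Of the 4 lower and 0 higher members with P under 0.05 and the 1 called DE, the numbers were equal with a pseudocount of 0.1, with no filter and with a mean FPKM of at least 1. They were 2 lower and 1 higher under upper-quartile scaling, quantile normalization and DESeq2, and edgeR had 1 higher and called 2 members DE. HSPA4L and MAPK10 kept P under 0.05 under each of these, and ATF4 and EDEM3 did not under upper-quartile scaling, quantile normalization, edgeR or DESeq2. Leaving out each pig gave 3 to 8 lower, 0 to 1 higher and 0 to 1 called DE, with 8 lower without rpFSH 1 and 1 higher (ATF6B) and 0 called DE without control 5. Leaving out the 3 pigs high in luteal markers, alone or with control 5, was chosen after seeing the data, and gave 0 called DE by limma and, by edgeR, 2 and 1 lower members and 1 called DE (SVIP) in both. The replicate number as a block gave 0 higher and 4 lower members. The deviations of same-numbered pigs had correlations of -0.41 to 0.11, with 1 of 5 over 0.1. Such correlations cannot show whether same-numbered pigs shared more than a number.

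Log2 changes near 0, none of them with P under 0.05 by limma in all 10 pigs, changed sign as follows. Upper-quartile scaling gave VCP 0.040, and quantile normalization gave VCP 0.020 and DDIT3 0.0032. By edgeR and DESeq2 they were -0.15 and -0.17 for ATF6B, 0.040 and 0.050 for DNAJA1, 0.026 and 0.029 for DNAJB11, 0.019 and 0.018 for PDIA4, 0.15 and 0.15 for SAR1A, and 0.11 and 0.11 for VCP. Without the 3 pigs high in luteal markers limma gave ATF6 0.038, ATF6B -0.15, HERPUD1 0.10, P4HB -0.054, SEL1L 0.033 and XBP1 -0.030, and without control 5 as well ATF6 0.10, ERN1 0.19, HERPUD1 0.10 and PDIA3 -0.011. By edgeR they were 0.15 (ATF6), -0.38 (ATF6B), 0.23 (HERPUD1), 0.14 (HYOU1), 0.089 (RPN2), 0.13 (SEL1L) and 0.020 (VCP), and without control 5 as well 0.22 (ATF6), 0.40 (ERN1), 0.23 (HERPUD1), 0.17 (HYOU1), 0.067 (RPN2), 0.11 (SAR1A), 0.092 (SEL1L) and 0.043 (VCP). Leaving out each pig, the range crossed 0 for ATF6B (-0.14 to 0.55), CALR (-0.31 to 0.028), DDIT3 (-0.21 to 0.042), DNAJA1 (-0.53 to 0.27), DNAJB11 (-0.28 to 0.086), EIF2AK3 (-0.028 to 0.067), ERN1 (-0.23 to 0.086), HERPUD1 (-0.21 to 0.041), HYOU1 (-0.39 to 0.065), P4HB (-0.11 to 0.20), PDIA3 (-0.18 to 0.22), PDIA4 (-0.21 to 0.072), RPN2 (-0.37 to 0.32), SAR1A (-0.40 to 0.20), SEC61A1 (-0.014 to 0.20), SEL1L (-0.30 to 0.011), VCP (-0.20 to 0.14) and XBP1 (-0.022 to 0.22). The cause of these changes was not tested.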
